A study of Rattus norvegicus with 24 samples.

Results

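The genes described here are 10 transcription factors that set or hold the identity of lung epithelial cells, namely Nkx2-1, Foxa1, Foxa2, Gata6, Cebpa, Sox2, Sox9, Etv5, Elf3 and Tbx4. They were chosen by name, and a probe was taken as theirs where its accession in the array files maps to the symbol. Of the 10 genes, 9 had at least 1 probe, with 14 probes in all, and Sox9 was matched to no probe and has no value. The 9 genes stand among 21255 genes or unnamed probes that were tested.

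Lung RNA of 24 Fischer-344 rats, bought at 7 to 8 weeks of age and carrying no genetic change named in the labels, was hybridized to one-colour Agilent arrays, on which each sample is labelled with Cy3 and measured alone. The control group breathed filtered clean air, and the low-dose, middle-dose and high-dose groups breathed hexanal, a volatile aldehyde found in indoor air, at 600, 1000 and 1500 ppm for 4 h a day on 5 days a week. Each group held 6 rats, 3 males and 3 females. The sample labels give 5 weeks of exposure and also write the same doses in mg per cubic meter, while the methods of the study give ppm and 4 weeks.

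NKX2-1 is the homeodomain factor that marks the lung and thyroid parts of the foregut, and it binds the surfactant gene promoters together with the forkhead factors FOXA1 and FOXA2 and the zinc finger factor GATA6. In the alveoli, C/EBP alpha (from Cebpa) and the ETS factor ETV5 act in type II cells, which make surfactant, and ETV5 is induced by FGF signals. SOX2 marks the conducting airways, where the ETS factor ELF3 is also found, whereas SOX9 marks the distal tips of the growing lung. TBX4 is a T-box factor known from the lung mesenchyme, so its gene is not an epithelial one in the strict sense.

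Of the 10 genes, 8 had a promoter sequence in the RefSeq table of the rat assembly GRCr8 (all but Foxa1 and Sox9). The 250 bases before the listed start site are shown for Cebpa, which differed between the sexes, and for 5 other genes. These 5 form the 3 pairs that correlated most strongly across rats with their brightest probes. The annotated genes span chr6:79731677-79735952 for Nkx2-1, chr11:92113171-92170758 for Etv5 and chr13:49242265-49247102 for Elf3. The Nkx2-1 window lies wholly and the Etv5 and Elf3 windows partly inside these spans. The starts used for these genes are therefore not their outermost ones. The capitals mark matches, on either strand, to short core motifs of the factors named above (TGTTTAC for forkhead, CTCAAG for NKX2-1, TTGCNNAA for C/EBP, AGATAA for GATA factors, ACAAAG for SOX, CCGGAA for ETS and GGTGTGA for T-box factors) and to the GC box GGGCGG, the CCAAT box and the TATA box TATAAA.
Nkx2-1, chr6:79734868-79735117, minus strand: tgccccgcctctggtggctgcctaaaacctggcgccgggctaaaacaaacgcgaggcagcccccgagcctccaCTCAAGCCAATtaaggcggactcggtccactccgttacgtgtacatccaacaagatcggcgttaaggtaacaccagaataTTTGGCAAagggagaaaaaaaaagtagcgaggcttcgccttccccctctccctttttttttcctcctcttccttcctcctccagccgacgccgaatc
Foxa2, chr3:155927509-155927758, minus strand: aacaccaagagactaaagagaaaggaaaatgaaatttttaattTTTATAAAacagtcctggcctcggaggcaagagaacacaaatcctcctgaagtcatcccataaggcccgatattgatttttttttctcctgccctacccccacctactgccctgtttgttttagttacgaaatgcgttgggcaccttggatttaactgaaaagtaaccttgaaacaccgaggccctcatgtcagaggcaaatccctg
Sox2, chr2:119464881-119465130, plus strand: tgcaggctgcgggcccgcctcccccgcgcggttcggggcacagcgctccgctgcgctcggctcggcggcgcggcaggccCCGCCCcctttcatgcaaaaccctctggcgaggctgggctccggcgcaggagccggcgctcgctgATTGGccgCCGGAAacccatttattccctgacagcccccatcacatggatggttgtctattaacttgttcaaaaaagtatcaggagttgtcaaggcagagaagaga
Elf3, chr13:49247087-49247336, minus strand: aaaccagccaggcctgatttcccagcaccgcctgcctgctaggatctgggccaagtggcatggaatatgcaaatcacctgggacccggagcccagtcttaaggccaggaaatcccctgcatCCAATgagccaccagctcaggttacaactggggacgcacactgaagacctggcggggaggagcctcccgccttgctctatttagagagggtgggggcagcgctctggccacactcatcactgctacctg
Etv5, chr11:92113013-92113262, plus strand: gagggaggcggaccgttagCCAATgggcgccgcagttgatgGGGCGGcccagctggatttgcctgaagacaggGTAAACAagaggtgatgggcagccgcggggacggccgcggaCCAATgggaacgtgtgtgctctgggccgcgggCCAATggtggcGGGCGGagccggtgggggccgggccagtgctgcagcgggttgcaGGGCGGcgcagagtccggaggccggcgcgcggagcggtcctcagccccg
Cebpa, chr1:96896334-96896583, plus strand: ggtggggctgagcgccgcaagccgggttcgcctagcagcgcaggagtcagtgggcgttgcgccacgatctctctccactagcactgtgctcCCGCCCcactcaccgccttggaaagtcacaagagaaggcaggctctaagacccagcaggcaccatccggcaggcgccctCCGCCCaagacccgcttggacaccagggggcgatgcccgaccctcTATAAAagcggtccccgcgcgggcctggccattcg

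The Nkx2-1 window held a CTCAAG match directly followed by a CCAAT box, and a C/EBP match, where 13.3%, 34% and 9.22% of 33469 promoter windows of the same length hold each of these. The Sox2 window held an ETS match (12.6% of windows), the Etv5 window a forkhead match (3.21%) and 3 CCAAT boxes, and the Elf3 window 1 CCAAT box only. The Cebpa window had a TATA box 35 bases before the start (12.9% of windows hold one) and 2 GC boxes (30.5%), and in the Foxa2 window a TATAAA and its reverse overlapped. The Etv5, Sox2 and Cebpa windows held 27, 23 and 21 CG pairs, against a median of 5 over all windows and 5 and 6 in the Foxa2 and Elf3 windows. A match is a string of letters and not a measured binding site.

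Levels are given on a log2 scale as the processed signal of a probe minus the 75th percentile of its array, so a value of 0 is the level of that percentile. The percentile ranged from 1700.86 to 3132.89 signal units over the 24 arrays, and 70.66% to 81.74% of probes were well above background. All 14 probes of the 9 genes were well above background on 24 of 24 arrays and none was saturated. Signals of different probes have different efficiencies, so levels are compared between rats and not between genes. There were 6 slides with 4 arrays on each, and a slide carried either males or females, of neighbouring doses. The surfactant genes of the lung were bright, with Sftpc at 7.78 and Sftpb at 7.24 in the control group. Tg, the thyroglobulin gene of the thyroid, another tissue with NKX2-1, was at -2.18. These levels come from different probes, so the gap between them does not measure the share of a tissue.

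**Figure D1:**
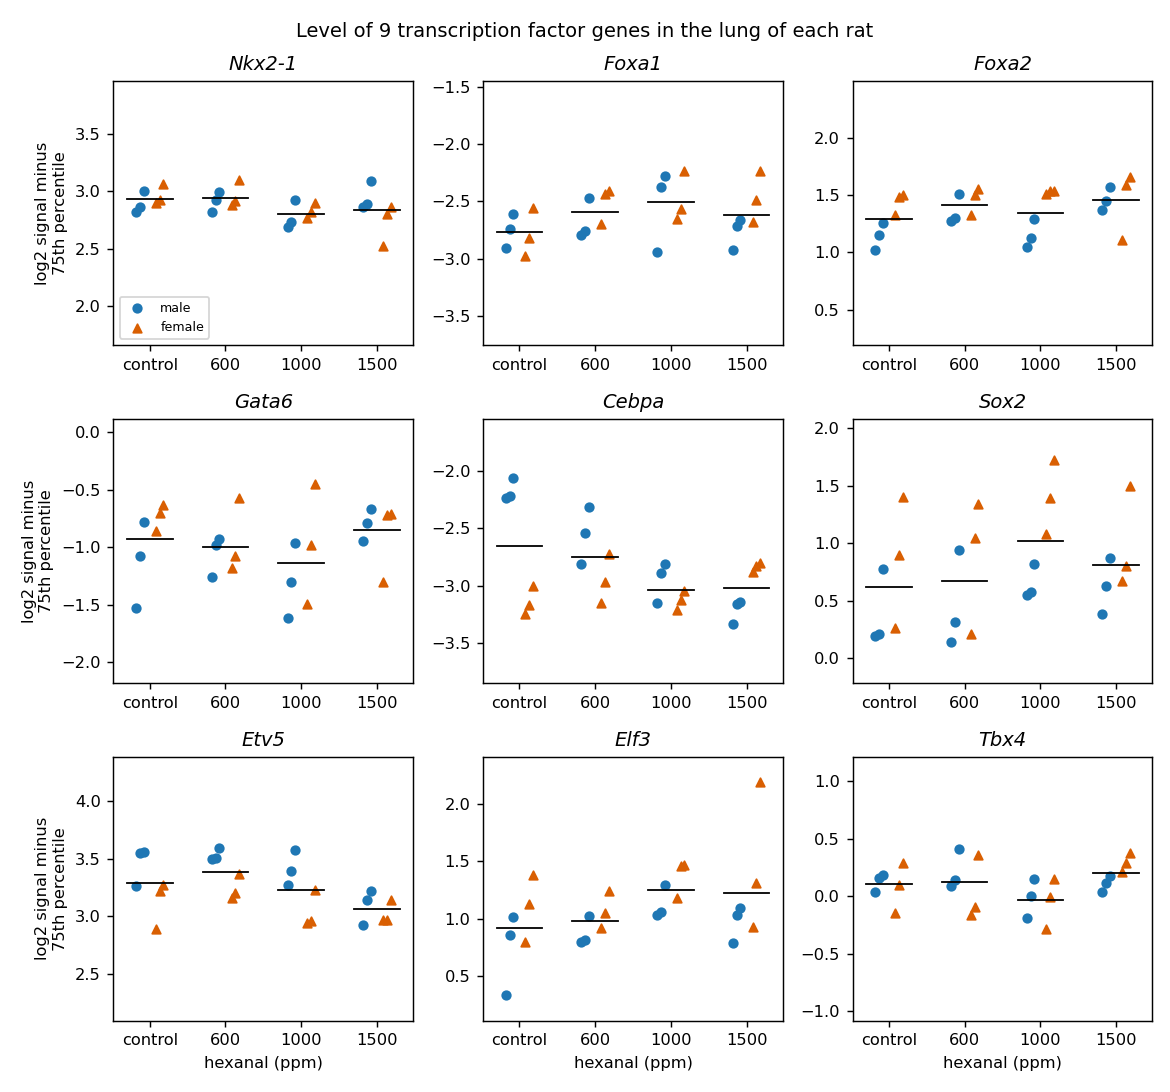
Level of each of the 9 measured genes (log2 signal minus the 75th percentile of the array, vertical axes of equal span) in each rat against the hexanal dose in ppm. Circles are males, triangles are females and bars are group means of 6 rats. The groups overlap in every panel, and the Cebpa values of exposed males all lie below those of the control males.

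At the group level none of the 9 genes passed the criterion for a change. By the criterion of the study, which asks for 1.5-fold or more together with p under 0.05 before adjustment, limma called 0 of the 9 genes at 600 ppm, 0 at 1000 ppm and 0 at 1500 ppm, where 0.616%, 1.64% and 1.22% of all genes tested were called. With no threshold on the fold change, only Foxa1 at 1000 ppm had an unadjusted limma p under 0.05, against 4.33%, 8.99% and 6.97% of all genes at the 3 doses. None of the 9 genes passed an adjusted p of 0.05, as 0%, 0.0188% and 0.0047% of all genes did. In no gene did a dose group lie wholly above or below the control group, as 0.278%, 0.456% and 0.48% of all genes did. The median difference of the 9 genes was 0.05, -0.06 and 0.10 at the 3 doses, beside -0.00, 0.00 and 0.01 over all genes. Without regard to sign, the median difference was 0.07, 0.20 and 0.16 for the 9 genes and 0.09, 0.11 and 0.10 over all genes. Ordered by group mean, every step between neighbouring groups was smaller than the residual SD of single rats in 9 of 9 genes. A group mean varies less than a single rat, so this comparison is not a test.

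Nkx2-1 (NM_013093) was the steadiest of the 9 genes, with a residual SD of 0.12 over rats, while the median over all genes was 0.23. The control rats lay between 2.82 and 3.06 with a median of 2.91. The low-dose rats lay between 2.82 and 3.10 (median 2.92). The middle-dose rats lay between 2.69 and 2.92 (median 2.79) and the high-dose rats between 2.52 and 3.09 (median 2.86). The middle-dose group was lower by 0.13, a difference with a 95% interval of -0.28 to 0.03 and an adjusted limma p of 0.632 (exact permutation p = 0.0411, two-sided, 1 of 27 such tests). Its probe was printed in 10 spots per array, and the median SD between the spots of an array was 0.04. A second probe of Nkx2-1 differed by 0.03, -0.06 and -0.09 at the 3 doses.

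Foxa1 (NM_012742), a pioneer factor that opens chromatin, had control values from -2.97 to -2.56 (median -2.78) and lay between -2.79 and -2.41 at 600 ppm (median -2.58). At 1000 ppm it lay between -2.94 and -2.24 (median -2.47), with 3 of 6 rats above every control rat. At 1500 ppm it lay between -2.93 and -2.23 (median -2.67). The difference at 1000 ppm was 0.26 (standard error 0.12, limma p = 0.0457, adjusted p = 0.548, exact permutation p = 0.0779). The other probe of Foxa1 was higher by 0.54 at 1000 ppm but with a standard error of 0.27, and the deviations of the probes from their group means correlated at only 0.34 over 24 rats.

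Foxa2 (NM_012743), its paralog, was close to its control level at every dose with both sexes pooled. The control rats lay between 1.02 and 1.504 (median 1.29) and the low-dose rats between 1.28 and 1.55 (median 1.41). The middle-dose rats lay between 1.04 and 1.54 (median 1.40) and the high-dose rats between 1.1045 and 1.66 (median 1.51). The largest difference was 0.16 at 1500 ppm (95% interval -0.06 to 0.39, limma, adjusted p = 0.803). At this dose the difference was 0.32 in males (95% interval 0.06 to 0.57, limma, adjusted p = 0.180) and 0.01 in females. The lowest value at this dose was that of female rat 37, which also had the lowest Nkx2-1 and Gata6 values of its group.

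Gata6 (NM_019185) had control values between -1.53 and -0.63 (median -0.82), and dose groups that covered the same range. They lay between -1.26 and -0.57 at 600 ppm (median -1.03), between -1.61 and -0.45 at 1000 ppm (median -1.14) and between -1.30 and -0.67 at 1500 ppm (median -0.75). The largest difference was -0.20 at 1000 ppm (95% interval -0.57 to 0.17, limma, adjusted p = 0.758).

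Etv5 (NM_001107082) was lowest at 1500 ppm, where its values were also closest together. The control rats lay between 2.89 and 3.56 (median 3.27), the low-dose rats between 3.16 and 3.59 (median 3.44) and the middle-dose rats between 2.94 and 3.58 (median 3.25). The high-dose rats lay between 2.92 and 3.22 (median 3.05), inside the control range. The difference was -0.23 (95% interval -0.48 to 0.01, limma, adjusted p = 0.740, exact permutation p = 0.0671). Its other probe was lower by 0.47 (standard error 0.16, limma p = 0.00808, adjusted p = 0.577, exact permutation p = 0.0130), with 4 of 6 high-dose rats below every control rat.

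Sox2 (NM_001109181) varied most from rat to rat, with a residual SD of 0.46. The control rats lay between 0.19 and 1.41 (median 0.52) and the low-dose rats between 0.14 and 1.34 (median 0.63). The middle-dose rats lay between 0.55 and 1.72 (median 0.95) and the high-dose rats between 0.38 and 1.49 (median 0.74). The difference of 0.40 at 1000 ppm had a 95% interval of -0.13 to 0.93 and an adjusted limma p of 0.658, so a rise of more than 1.5-fold is inside the interval. The other probe gave 0.48 at 1000 ppm, and the deviations of both probes from their group means correlated at 0.96.

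Elf3 (NM_001024768) had control values from 0.34 to 1.38 (median 0.94) and lay between 0.80 and 1.24 at 600 ppm (median 0.97). It lay between 1.04 and 1.47 at 1000 ppm (median 1.24) and between 0.79 and 2.19 at 1500 ppm (median 1.06). The differences were 0.33 at 1000 ppm (95% interval -0.05 to 0.72, limma, adjusted p = 0.614) and 0.30 at 1500 ppm (-0.08 to 0.69, adjusted p = 0.779). The value of 2.19 was that of female rat 36, and without that rat the difference at 1500 ppm was 0.11.

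Tbx4 (NM_001107034) had control values from -0.15 to 0.29 (median 0.13) and lay between -0.16 and 0.41 at 600 ppm (median 0.12). It lay between -0.28 and 0.15 at 1000 ppm (median -0.00) and between 0.04 and 0.38 at 1500 ppm (median 0.20). The largest difference was -0.13 at 1000 ppm (95% interval -0.34 to 0.08, limma, adjusted p = 0.716). The other probe of Tbx4 was lower at 1000 ppm by 0.30 (limma p = 0.0167, adjusted p = 0.528, exact permutation p = 0.0476), with 5 of 6 rats below every control rat. The deviations of both Tbx4 probes correlated at -0.26, so the probes disagree and no single course can be given for this gene.

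**Figure D2:**
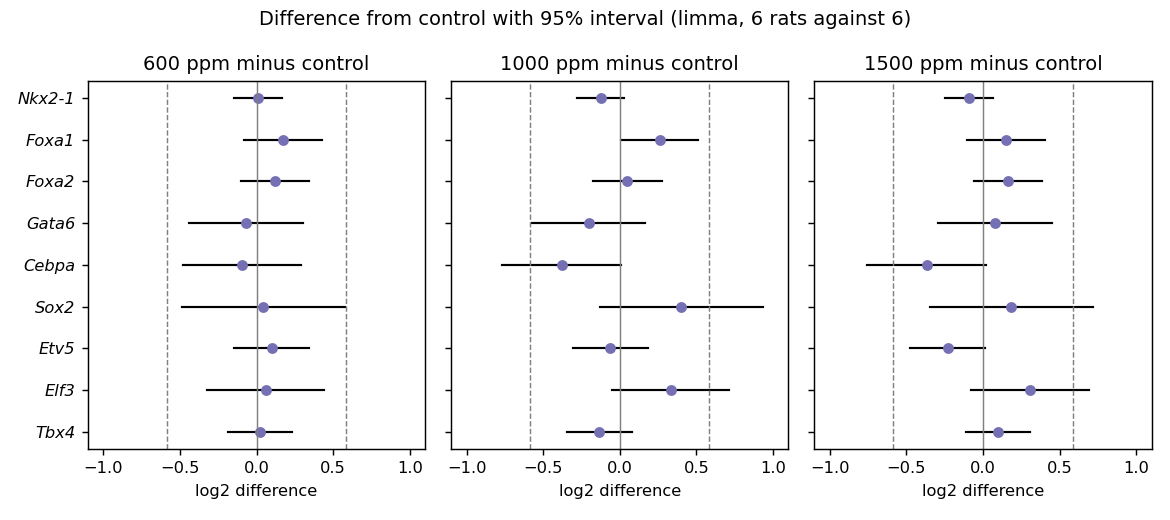
Difference of each dose group from the control group (horizontal axis, log2 scale) for the 9 genes, with the 95% interval of limma, 6 rats against 6. Dashed lines mark a change of 1.5-fold either way. The intervals lie between the dashed lines for 9 genes at 600 ppm and for 6 genes at 1000 and at 1500 ppm, and only that of Foxa1 at 1000 ppm leaves out 0.

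The intervals hold for the fit with both sexes pooled and no slide term, in which shifts between slides are not counted. Control and high-dose rats shared no slide. With the slide as a fixed block the standard error of the Cebpa difference at 1500 ppm was 0.28, in place of 0.19. At 600 ppm the 95% intervals of 9 of 9 genes lay inside a 1.5-fold change either way, as did 76% of all genes. At 1000 and 1500 ppm this held for 6 of 9 genes (72.5% and 73.6% of all genes), the exceptions being Sox2, Cebpa and Elf3. A slope on dose had an unadjusted limma p under 0.05 for 2 of the 9 genes, beside 8.49% of all genes, and an adjusted p under 0.05 for 0 (0.0141% of all genes). These were Cebpa, at -0.28 per 1000 ppm (standard error 0.12, adjusted p = 0.545), and Etv5, at -0.16 (standard error 0.08, adjusted p = 0.587). With the slide as a fixed block both slopes were smaller in size, -0.13 and 0.03.

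Cebpa (NM_012524), which encodes a leucine zipper factor needed for type II cells to mature, differed between the sexes in its response. All 9 exposed males lay below every control male, and the females showed no such order. The control males had values of -2.24, -2.22 and -2.06, and the control females -3.25, -3.17 and -3.01. At 600 ppm the males had -2.81, -2.54 and -2.32 and the females -3.15, -2.97 and -2.72. These values already showed 3 low-dose males below every control male, and no such separation among the females. At 1000 ppm the males had -3.15, -2.89 and -2.81 and the females -3.21, -3.12 and -3.04. At 1500 ppm the males had -3.33, -3.16 and -3.14 and the females -2.88, -2.83 and -2.80. The control males lay above every other rat, and the sex difference of the control group had turned round at 1500 ppm, where the females were higher.

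**Figure D3:**
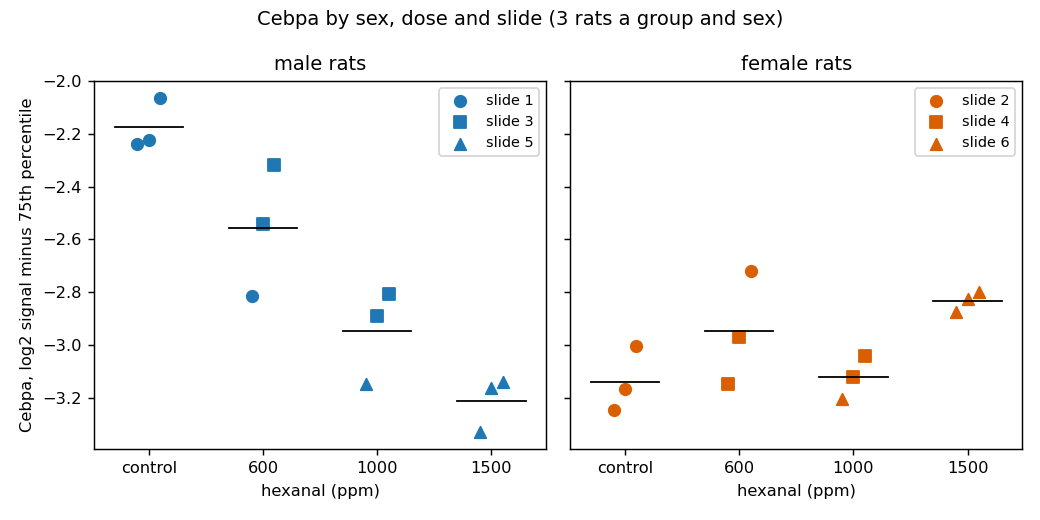
Level of Cebpa (log2 signal minus the 75th percentile of the array) against the hexanal dose in ppm, males on the left and females on the right. Each symbol is 1 rat, its shape gives the slide and bars are means of 3 rats. The means of the males go from -2.17 to -3.21 and those of the females from -3.14 to -2.83.

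The effect of 1500 ppm on Cebpa was -1.04 in males (standard error 0.12, limma, adjusted p = 0.000463) and 0.31 in females (standard error 0.12, adjusted p = 0.226). The female effect minus the male effect was 1.34 (95% interval 0.97 to 1.71, limma, adjusted p = 0.000498). Among all genes tested, 3.16% passed the adjusted threshold in males at this dose and 1.51% in females. For this difference 1 of the 9 genes passed an adjusted p of 0.05 at 1500 ppm, beside 5.02% of all genes, and Cebpa ranked 19 of 21255 genes by p and 693 by size. The same difference was 0.58 at 600 ppm (adjusted p = 0.895) and 0.79 at 1000 ppm (adjusted p = 0.214), and 0 of the 9 genes passed at either dose, where 0% of all genes did. Without adjustment Cebpa alone of the 9 had p under 0.05 at each dose, beside 4.99%, 9.41% and 20.2% of all genes. In males the effects at 600 and 1000 ppm were -0.38 and -0.78, the second with an adjusted p under 0.05, as in 0.0047% and 0.0941% of all genes. In females they were 0.19 and 0.02 and neither passed (0% and 0.00941% of all genes). The control females were lower than the control males by 0.97 (limma, adjusted p = 0.000696), as 6.35% of all genes differed, and all 3 differences share these control rats. At 1500 ppm the females were higher by 0.38, which did not pass an adjusted p of 0.05 (9.01% of all genes did). Both sexes pooled, Cebpa differed by -0.10, -0.38 and -0.37 at the 3 doses, with adjusted limma p-values of 0.997, 0.561 and 0.739.

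Males and females lay on different slides, so in the level of Cebpa among control rats the part of the slide and that of the sex cannot be told apart. Neighbouring doses shared slides, so dose effects could also be taken within slides. On slide 1 the male at 600 ppm was 0.64 lower than the 3 control males, while on slide 2 the female at 600 ppm was 0.42 higher than the 3 control females. From 600 to 1000 ppm the difference was -0.42 in the males of slide 3 and -0.02 in the females of slide 4. From 1000 to 1500 ppm it was -0.06 in the males of slide 5 and 0.37 in the females of slide 6, each with 1 rat at 1000 ppm. With the slide as a fixed block the female minus male effect at 1500 ppm was 1.89 (standard error 0.29, limma, adjusted p = 0.0188). With the block the effect was -1.12 in males and 0.77 in females (limma, adjusted p = 0.103 in each). The link from control to 1500 ppm within slides thus rests on single rats of slides 1, 2, 5 and 6. The signals behind the Cebpa values were dim, between 244.2 and 650.6 units. Under a normexp background correction the female minus male effect was 0.73 (limma, adjusted p = 0.333). That correction fitted backgrounds between -742.4 and -169.4 units on 3 arrays and between -54.2 and 4.06 on the others. A second version left out the spots that the scanner software marked for an outlying local background, 111 to 1230 per array. Its difference was 1.1003 (limma, adjusted p = 0.000987).

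The other 8 genes had no difference between the sexes past an adjusted p of 0.05 at any dose. The lowest adjusted p was that of Nkx2-1 at 1500 ppm, with an effect of 0.05 in males and -0.23 in females (difference -0.28, 95% interval -0.58 to 0.01, limma, adjusted p = 0.266). For Gata6 the difference at this dose was -0.51, with a 95% interval of -1.25 to 0.23. For Sox2 it was -0.10 with an interval of -1.05 to 0.84, which leaves room for differences in either direction. Among males, 2 of the 9 genes had no overlap between dose and control at 600 ppm (Foxa2 and Cebpa, 8.95% of all genes) and 2 at 1000 ppm (Cebpa and Elf3, 14.8%). Among females there were 0 at 600 ppm (18.1% of all genes) and 2 at 1000 ppm (Nkx2-1 and Foxa2, 19.1%). At 1500 ppm 3 genes in males had no overlap between dose and control (Foxa2, Etv5 and Cebpa), where 25.8% of all genes had none. Among females there were 2 at 1500 ppm (Nkx2-1 and Cebpa), where 21.3% of all genes had none.

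From rat to rat within the dose groups, several of the genes moved together. Deviations from the group mean were correlated over 24 rats for all 36 pairs of the 9 genes, with Pearson p from 100000 permutations. After Benjamini-Hochberg adjustment over the 36 pairs, 10 had p under 0.05, of which 7 were positive and 3 negative. With values centred on the slide in place of the dose group 6 pairs passed, and 5 pairs passed both ways. Whole-lung RNA was measured, so fewer cells of a type and less RNA per cell cannot be told apart in any of these values.

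The airway factor Sox2 and the alveolar factor Etv5 were opposed. Their Pearson r was -0.79 (adjusted permutation p = 0.00054) and Spearman's rho -0.77 (adjusted p = 0.00144), with r of -0.71 without the 2 rats of most extreme Sox2. Within males r was -0.61, within females -0.71, and with values centred on the slide -0.72. With the other Sox2 probe r was -0.75 (rho -0.69, adjusted permutation p of r = 0.00021 and of rho = 0.00168), and with the other Etv5 probe -0.66 (rho -0.60, adjusted permutation p of r = 0.00174 and of rho = 0.00537), but -0.26 when the latter was centred on the slide. The rats farthest toward high Sox2 and low Etv5 were females and those farthest toward the opposite end were males, with some of each sex between them.

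Sox2 and Elf3, the factors of the airway, were positively correlated across rats. Their r was 0.71 (adjusted permutation p = 0.00054), rho 0.68 (adjusted p = 0.00564) and r 0.67 without the 2 most extreme rats. Within males it was 0.41, within females 0.65 and centred on the slide 0.63. With the brightest probe of each, Sox2 and Tbx4 were opposed at r = -0.55 (rho -0.52, adjusted permutation p of r = 0.0238 and of rho = 0.0389, -0.53 without the 2 most extreme rats, -0.60 centred on the slide, -0.37 in males and -0.75 in females). With the other Tbx4 probe r was 0.13 (rho 0.19, adjusted permutation p of r = 0.596 and of rho = 0.401), so this relation rests on 1 probe.

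Nkx2-1 and Foxa2, which act together at surfactant and secretory promoters, were correlated with the brightest probe of Nkx2-1 only. Their r was 0.64 within dose groups (adjusted permutation p = 0.00672, rho 0.61 with adjusted p = 0.0122) and 0.82 centred on the slide. It was 0.83 in males and 0.80 in females, and 0.55 without the 2 rats of most extreme Nkx2-1. With the other Nkx2-1 probe r was 0.06 (rho 0.04, adjusted permutation p of r = 0.827 and of rho = 0.841), and the deviations of both Nkx2-1 probes correlated at 0.23, so this pair rests on 1 probe. Foxa2 was also correlated with Gata6, at r = 0.57 (adjusted permutation p = 0.0183, rho 0.54 with adjusted p = 0.0335), with 0.55 centred on the slide, 0.66 in males, 0.40 in females and 0.40 without the 2 most extreme rats.

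The other 5 pairs that passed did not do so when centred on the slide. They were Cebpa with Etv5 (r = 0.61, 0.25 centred on the slide), Foxa2 with Sox2 (0.60 and 0.27), Etv5 with Elf3 (-0.58 and -0.39), Etv5 with Tbx4 (0.56 and 0.43) and Nkx2-1 with Gata6 (0.50 and 0.47). With the other probe of a gene, r was 0.57 for Etv5 with Cebpa, -0.46 for Etv5 with Elf3, 0.34 for Etv5 with Tbx4, -0.24 for Tbx4 with Etv5 and 0.05 for Nkx2-1 with Gata6. The control females minus the control males gave -0.97 for Cebpa and -0.33 for Etv5, the latter with a limma adjusted p of 0.099.

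**Figure D4:**
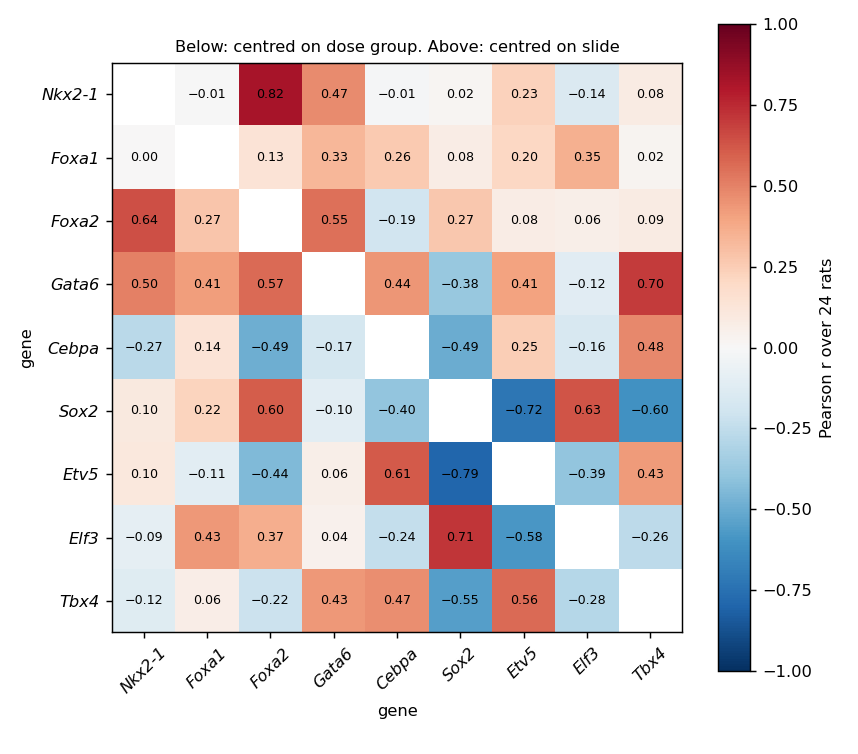
Pearson correlation over 24 rats between the levels of the 9 genes. Cells below the diagonal use deviations from the dose group mean and cells above it deviations from the slide mean, and red is positive and blue negative. Each gene is shown by its brightest probe, and Nkx2-1 with Foxa2 (0.64 and 0.82) and Sox2 with Etv5 (-0.79 and -0.72) are strong on both sides.

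**Figure D5:**
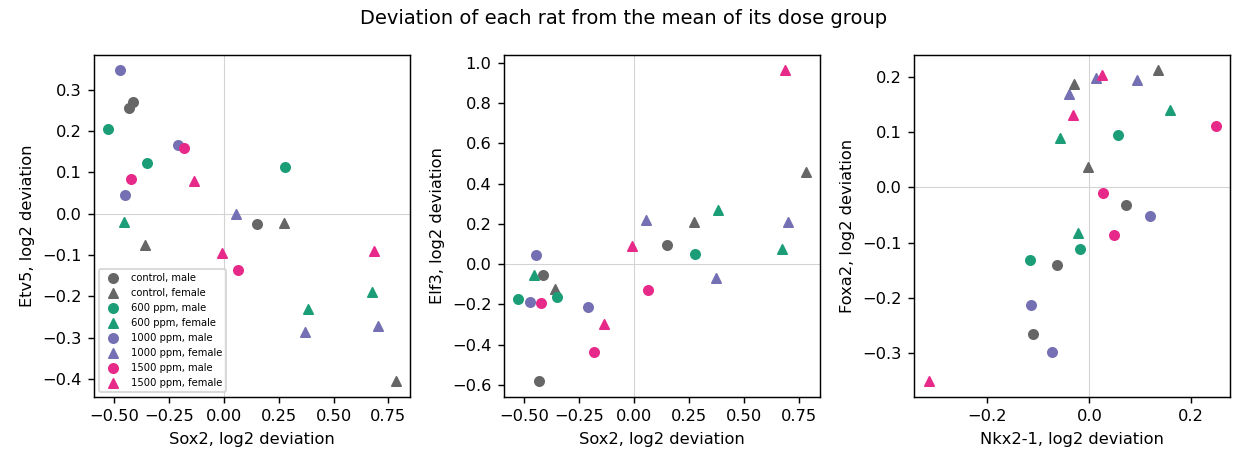
Deviation of each rat from the mean of its dose group (log2 scale) for Sox2 against Etv5, Sox2 against Elf3 and Nkx2-1 against Foxa2. Colours give the dose group, circles are males and triangles are females. The 4 points of highest Sox2 are females, and the lowest point of the last panel is high-dose female 37.

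Some summed signals of marker genes of lung cell types moved with some of the same genes. Of 135 relations (9 genes by 15 cell type lists), 17 had an adjusted permutation p under 0.05, and these relations were added after the values had been seen. Sox2 followed the 5 club cell markers, the secretory cells of the small airways, with r = 0.78 (rho 0.73, adjusted permutation p of r = 0.000675 and of rho = 0.00315, 0.70 without the 2 most extreme rats, 0.65 centred on the slide, 0.57 in males and 0.72 in females). It ran against the 5 type I cell markers, with r = -0.79 (rho -0.68, adjusted permutation p of r = 0.000675 and of rho = 0.00621, -0.71 without the 2 most extreme rats, -0.67 centred on the slide, -0.51 in males and -0.75 in females).

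Elf3 had the same pattern, with r = 0.76 for club cell markers (rho 0.82, adjusted permutation p of r = 0.000675 and of rho = 0.00135) and -0.74 for type I cell markers (rho -0.74, adjusted p of r = 0.00108 and of rho = 0.00315). Etv5 followed the type I cell markers at r = 0.71 (rho 0.71, adjusted permutation p of r = 0.00202 and of rho = 0.00371), with 0.26 in males and 0.69 in females. Gata6 followed the 8 type II cell markers at r = 0.71 (rho 0.68, adjusted permutation p of r = 0.00202 and of rho = 0.00439, 0.79 centred on the slide, 0.70 in males and 0.85 in females). With the type II sum, Cebpa had r = 0.01, Etv5 0.38, Nkx2-1 0.40 and Foxa2 0.17. None of these passed (adjusted permutation p of r = 0.977, 0.205, 0.172 and 0.626). Tbx4 followed the 4 endothelial markers at r = 0.63 (rho 0.60, adjusted permutation p of r = 0.0110 and of rho = 0.0183) with its brightest probe, but with its other probe r was -0.33 (rho -0.25, adjusted permutation p of r = 0.137 and of rho = 0.299). Sox2, Elf3 and Etv5 also moved with the sums of 3 leukocyte markers, at r of 0.70, 0.69 and -0.66 (rho 0.64, 0.71 and -0.69, adjusted permutation p of r = 0.00202, 0.000675 and 0.0048), and of 3 basal cell markers, at 0.66, 0.60 and -0.64 (rho 0.59, 0.61 and -0.70, adjusted permutation p of r = 0.00823, 0.0125 and 0.011). Centred on the slide the leukocyte values were 0.55, 0.53 and -0.46 and the basal cell values 0.38, 0.36 and -0.23. Within males the leukocyte values were only 0.16, 0.34 and 0.05, and within females 0.69, 0.65 and -0.46. The basal cell values were 0.23, -0.06 and -0.22 in males and 0.58, 0.59 and -0.47 in females. Etv5 and the club cell sum had r = -0.63 (-0.39 centred on the slide), Gata6 and the endothelial sum 0.62 (0.60), and Foxa2 and the ciliated cell sum 0.56 (0.51). Whether a changing share of airway tissue in the extract takes part in these relations was not tested.

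Between the control and high-dose groups the ciliated cell sum did not overlap. It ran from 5.55 to 6.0967 in the control rats and from 6.12 to 6.35 at 1500 ppm. At 1000 ppm its lowest value, 6.08, lay inside the control range. Of all single genes, 0.48% had control and high-dose groups that did not overlap. Of its 4 genes, Tuba1a, a tubulin gene that other cells also express, was at 5.70 in the control group and 6.10 at 1500 ppm (limma, adjusted p = 0.157). The control median of the sum was 5.85, so Tuba1a made up most of it, also in the relation with Foxa2 above. Foxj1, the master factor of motile cilia, was at 0.70 and 0.75. The part of this shift in the values of the 9 genes was not tested. For club cells the summed level of the control rats ran from 7.19 to 7.87 (median 7.46), with values between 7.58 and 8.05 at 1000 ppm (median 7.88) and between 7.25 and 8.27 at 1500 ppm (median 7.46). The type I cell sum had medians of 7.50, 7.50 and 7.54 in the same groups. The type II cell sum was between 9.01 and 9.23 in the control group and between 8.84 and 9.27 at 1000 ppm. The heart muscle sum had a median of 2.61 in the control group (1.54 to 5.13) and 5.57 at 1000 ppm (2.98 to 6.93). The source of this signal was not tested. Gata6, which heart also expresses, ran against the heart muscle sum at r = -0.61 (rho -0.60, adjusted permutation p of r = 0.0110 and of rho = 0.0183).

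Genes were ranked among all genes tested by the correlation of deviations from the group means over 24 rats. The genes most like Sox2 were Drc12 (r = 0.94) and Odad4 (0.93), which encode parts of the motile cilium. The sum of the ciliated cell markers had r = 0.295 with Sox2 (rho 0.42, adjusted permutation p of r = 0.377 and of rho = 0.179). This sum is mostly the signal of Tuba1a, which other cells also express. The genes most like Nkx2-1 were Kcne2, a potassium channel subunit (0.76), and Fkbp2 (0.70). Those most like Cebpa were Sgms1, a sphingomyelin synthase (0.87), and Irx1, a homeodomain factor (0.86). For Etv5 they were Dffa (0.91) and Bnip3l (0.89), for Elf3 Col9a2 (0.88) and Prss30 (0.88), for Foxa1 Usp2 (0.85) and Lrrc1 (0.85), for Foxa2 Ppil1 (0.78), for Gata6 Clrn2 (0.86) and Fam118a (0.85), and for Tbx4 Zfp74 (0.82) and Itga1 (0.80). These values describe the libraries, which share slides and sexes, and have no test.

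Around these 9 genes, 4 lists of related genes had 115 members that passed the filter on dim probes, of which 0 were called at 600 ppm, 5 at 1000 ppm (4 higher and 1 lower) and 4 at 1500 ppm (1 higher and 3 lower), beside 0.616%, 1.64% and 1.22% of all genes tested. None of them had an adjusted limma p under 0.05. The medians of the lists lay between -0.08 and 0.09 at all 3 doses. Of 39 lineage transcription factors, 0, 3 and 4 were called at the 3 doses. Of 25 target genes in the epithelium, 2 were called at 1000 ppm. Of 21 partners and cofactors and of 30 genes of upstream signals, 0 were called at any dose.

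Among the lineage factors Cebpd, a relative of Cebpa induced by glucocorticoids and cytokines, had differences of -0.79 at 1000 ppm and -1.01 at 1500 ppm (standard error 0.26, limma, adjusted p = 0.516 and 0.310). Its control values lay between 2.83 and 4.77 (median 3.98) and its high-dose values between 2.60 and 3.41 (median 2.75). Klf4, a zinc finger factor of epithelial differentiation, had a difference of -0.71 at 1500 ppm (standard error 0.16, limma, adjusted p = 0.157). All 6 high-dose rats, between 1.62 and 2.22, lay below every control rat, between 2.32 and 3.23. At this dose 0.48% of all genes had dose and control groups that did not overlap. Sox17 differed by -0.71 at 1500 ppm (standard error 0.21, adjusted p = 0.444). Mycn, a MYC family gene active in distal lung progenitors, differed by 0.71 at 1000 ppm and 0.88 at 1500 ppm (standard error 0.27, adjusted p = 0.516 and 0.458). Foxa3, the third FOXA gene, differed by 0.71 at 1000 ppm (standard error 0.33, adjusted p = 0.543) at a dim level, and Pou2f3, the tuft cell factor, by 0.37, 0.67 and 0.49 at the 3 doses without being called.

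Among the epithelial targets the 2 genes called were secretory or detoxifying genes of the airway. Scgb3a1 had control values from -3.16 to 2.35 (median 0.72) and lay between 0.45 and 4.30 at 1000 ppm (median 3.56), a difference of 2.95 with a standard error of 1.27 (limma, adjusted p = 0.517). Cyp2f4, the club cell cytochrome, differed by 0.89 at 1000 ppm (standard error 0.35, adjusted p = 0.516). The largest falls in this list were those of Lpcat1 and Slc34a2, a phospholipid enzyme and the phosphate carrier of type II cells, with -0.31 and -0.29 at 1500 ppm (standard errors 0.12 and 0.10), and neither was called. Among partners and cofactors the differences at 1000 ppm were -0.40 for Smad2, -0.21 for Crebbp and 0.39 for Sox6, and Tead1 had 0.29 at 1500 ppm. Among upstream signals Dusp6, the feedback phosphatase of the FGF and ERK pathway, had -0.38 at 1000 and at 1500 ppm (standard error 0.12), Spred2 -0.49 at 1000 ppm, Fgf1 0.33 at 1500 ppm and Wnt2b 0.36 at 600 ppm, and none of these was called.

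The difference between the sexes at 1500 ppm passed an adjusted p of 0.05 for 8 of 39 lineage transcription factors, 2 of 21 partners, 2 of 30 upstream genes and 0 of 25 targets, beside 5.02% of all genes. The lineage factors were Cebpb, Cebpd, Klf5, Foxp2, Mycn, Ovol1, Snai1 and Tfcp2l1. Cebpd had an effect of -1.78 in males and -0.24 in females (difference 1.55, limma, adjusted p = 0.0195), and Cebpb -0.77 and 0.07 (difference 0.83, adjusted p = 0.0199), so both relatives of Cebpa differed between the sexes in the direction of Cebpa. Mycn was opposite, with 1.74 in males and 0.02 in females (difference -1.72, adjusted p = 0.00753). Trib1, whose protein leads C/EBP alpha to degradation, had 0.29 in males and -0.45 in females (difference -0.75, adjusted p = 0.0167). With the slide as a fixed block 11 of these 12 genes kept the sign of the difference, Klf5 being the exception, and 0 passed an adjusted p of 0.05, while Cebpa did. With the block the difference was larger in size for Mycn (-2.73, against -1.72 without it) and Ovol1 (-1.35, against -0.79). The same held for Foxp2 (1.29 and 0.79) and Trib1 (-0.92 and -0.75). The difference was smaller for Cebpd (1.39 and 1.55), Cebpb (0.69 and 0.83), Tfcp2l1 (-1.04 and -1.48) and Snai1 (-0.81 and -1.155). It was also smaller for Fgf7 (-0.56 and -0.89), Spry4 (-0.57 and -1.09), Zfpm2 (0.24 and 0.71) and Klf5 (-0.05 and 0.98).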

How the data were processed

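The deposited intensities are the processed signals of Agilent Feature Extraction 11.5.1.1, per the file headers, which subtracts the local background and detrends within each one-colour array, with no scaling between arrays. Per array, 99.19% to 99.43% of the probes in the authors' own value table lay within 0.1% of these signals. The array was designed on the rat build rn4, so no coordinates are given for probes, and the normalization of the mRNA values is not given in the sources used here.

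Spots with an outlier mark from the scanner software were dropped along with the control spots, replicate spots were averaged, and 18355 of 30367 probes (60.4%) were named by accession through the RefSeq gene table of GRCr8. The log2 of the deposited signal minus the 75th percentile of the array was tested. Probes well above background on at least 5 of 6 arrays of a group passed, and of several probes of a gene the one of highest mean was tested. Fits were made with lmFit and eBayes of limma 3.58.1 under R 4.3.3 on all 24 arrays, after reading with the package data.table (version 1.17.8), and Benjamini-Hochberg adjustment over 21255 genes or unnamed probes. A gene was called at 1.5-fold and an unadjusted p under 0.05, the thresholds of the study, whose methods used an unpaired test on each dose. The difference between the sexes was tested on 8 groups of sex and dose. Exact permutation tests are two-sided over 924 splits of 6 rats against 6 and their p is not adjusted. The fits without a slide term were also run on simulated data with known differences. Those data held no slide effects and a sex difference larger than that of Cebpa, so they do not test the slide block.

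The genes, the lists around them and the cell type markers were chosen with earlier results of these data known. All 9 measured genes are named with every probe. Of the listed genes, those called at any dose, the 2 largest rises and the 2 largest falls of each list by the mean of the 3 doses, and those with a difference between the sexes at 1500 ppm are named, the last chosen after their values were seen. For each gene the 2 most alike genes are named, except that 1 of them is not reported here. Effects within each sex and relations to marker sums were added after the values were seen. Replicates are rats, and the number of arrays limits the precision. Groups come from the sample labels, and no per-sample column was left unmapped. The alternatives were another background correction, other scalings, other filters, the methods' t-test, fits of 1 dose, sex or slide in the model, array weights, every probe, an adjusted p with the fold threshold, and each of 24 rats left out.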

Additional observations from a re-analysis of the deposited data

Results flagged for a closer look

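The effect of 1500 ppm on Cebpa differed between the sexes, with a female minus male effect of 1.34 on the log2 scale (standard error 0.18, limma, adjusted p = 0.000498). The 3 high-dose males lay below and the 3 high-dose females above every control rat of their own sex. At this dose 25.8% of all genes in males and 21.3% in females had no overlap with control. No slide carried both sexes, but neighbouring doses shared slides, and with the slide as a fixed block the difference was 1.89 (standard error 0.29, limma, adjusted p = 0.0188). With that block the male effect alone was -1.12 (limma, adjusted p = 0.103). Under the normexp background correction the difference was 0.73 (limma, adjusted p = 0.333). It was 1.1003 (limma, adjusted p = 0.000987) when spots of outlying local background were left out.

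Of 56 groups of 6 rats, for 14 probes and 4 groups, 1 had a rat far from the others. For the dimmer Tbx4 probe at 1500 ppm, the gap of female rat 37 to the next rat was 0.689 of the range of the group, with its value of -1.14 above the group median of -1.62. Chance marks about 1 in 20 groups in this way.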

How the results depend on the processing

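No paired analysis was possible because the groups share no replicate numbers. The count of 0 called genes of the 9 held at 600 and 1500 ppm under each alternative and with each of 24 rats left out, and at 1000 ppm under all but the normexp background correction, which called 1 gene, Cebpa. On 3 arrays that correction had fitted backgrounds of -742.4, -228.1 and -169.4 units, against -54.2 to 4.06 on the others. A second version left out every spot whose local background the scanner software marked as an outlier, 111 to 1230 spots per array. With it, the fitted backgrounds of control rat 21 and high-dose rat 17 also moved, from -49.56 to -6.96 and from -54.2 to -11.62. Under this alternative, chosen after seeing the data, 0 genes were called. Among 351 differences of a gene at a dose under these alternatives 23 had another sign than in the main setting, and 17 of 648 with a rat left out, none of them called.

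For the sex difference, normexp left 0 genes at 1500 ppm in place of 1, with the Cebpa difference at 0.73, and the slide as a fixed block gave 1 gene at 600 ppm in place of 0, again Cebpa, with 1.06. With each rat left out the Cebpa difference at 1500 ppm lay between 1.28 and 1.41 and its adjusted limma p between 0.000117 and 0.00244. The male effect alone lay between -1.07 and -0.98. With the slide block the male effect was -1.12 and the female effect 0.77 (limma, adjusted p = 0.103 in each). The slope of Etv5 was 0.027 with that block, in place of -0.16. The called genes of the 4 lists at 600 ppm went from 0 to 1 with the slide block. The pairs of genes past the threshold went from 10 to 6 when centred on the slide and to 11 after quantile normalization. The unadjusted p of the Cebpa slope was above 0.05 when any of control rats 1, 2 and 3 or high-dose rat 18 was left out. That of the Etv5 slope was above it without control rat 2 or 3, low-dose rat 6, 7, 8 or 26, middle-dose rat 31, 32 or 33, or high-dose rat 17, 18, 36, 37 or 38, each taken singly. With the other probe of a gene, an alternative chosen after seeing the data, 7 of 12 relations between genes and 8 of 9 with marker sums passed, and the sign turned for Tbx4 with Etv5 (-0.24), Sox2 (0.13) and the endothelial sum (-0.33).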
